A study of Homo sapiens with 4 samples.

Results

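The 10 genes described here encode RNA-binding proteins that set how long inflammatory messenger RNAs last. They were taken by symbol from the 24424 gene symbols of the count tables, and all 10 averaged at least 16 normalized counts across the 4 libraries, as did 13072 symbols in all. They were ZFP36, ZFP36L1 and ZFP36L2, the Regnase genes ZC3H12A and ZC3H12C, the Roquin genes RC3H1 and RC3H2, and 3 further proteins that bind AU-rich sequence, ELAVL1, HNRNPD and KHSRP. The cells were BEAS-2B, an established immortalized line of human bronchial epithelium that the labels give as wild type in genotype. Control cells were left untreated, LPS cells received bacterial lipopolysaccharide for 2 h, and WT PDZ+LPS and mut PDZ+LPS cells had the wild-type or the mutant peptide of the ZO-1 PDZ domain for 24 h before the same 2 h of LPS, so that every group but Control received LPS. The peptides carry a Tat stretch for entry into cells, and the mutant has a pair of glycines changed to alanines. Each condition was 1 library of poly(A)-selected RNA from bulk culture, and no library of peptide without LPS was analysed here. No difference below therefore has a replicate check, no p-value is given, and 95% intervals (exact binomial, Clopper-Pearson) cover the counting error between 2 libraries only. In bulk RNA, fewer cells expressing a gene and less of its RNA per cell cannot be told apart.

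Many messenger RNAs of cytokines and early response genes carry AU-rich elements in their 3′ untranslated region, the stretch behind the coding part. ZFP36, also called tristetraprolin, and its relatives ZFP36L1 and ZFP36L2 bind these elements through a pair of zinc fingers and bring in the CCR4-NOT complex, which shortens the poly(A) tail. Regnase-1, the product of ZC3H12A, is an endonuclease that cuts messenger RNAs at stem-loops, and the Roquin proteins bind similar stem-loops and recruit deadenylation. KHSRP (KSRP) also promotes decay, ELAVL1 (HuR) stabilizes many of the same messages, and HNRNPD (AUF1) has been linked to both outcomes. In many cell types the genes of these decay factors are themselves targets of inflammatory signaling, which gives a negative feedback.

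The binding element is shown first because several of the decay factors carry it as well as their targets. The nonamer TTATTTATT, the core that the ZFP36 proteins prefer, was sought on the sense strand of the 3′ untranslated region of the longest complete protein-coding transcript in GENCODE 29 (build GRCh38). It was present in 6 of the 10 decay factors, in 15 of 29 known AU-rich target transcripts and in 8.15% of the 19075 annotated 3′ untranslated regions. All the windows below lie in the exonic 3′ untranslated region, run 5′ to 3′ as the DNA letters of the messenger RNA, and have the nonamer in capitals. The ZFP36 family windows were at chr19:39409197-39409223 on the plus strand for ZFP36, chr14:68788078-68788104 on the minus strand for ZFP36L1 and chr2:43223449-43223475 on the minus strand for ZFP36L2. Those of ZC3H12C, RC3H2 and ELAVL1 were at chr11:110170158-110170184 (plus), chr9:122849200-122849226 (minus) and chr19:7961829-7961855 (minus).
ZFP36: atgacgactTTATTTATTctaatatga
ZFP36L1: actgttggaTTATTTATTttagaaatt
ZFP36L2: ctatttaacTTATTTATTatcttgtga
ZC3H12C: ttacacccaTTATTTATTagagatatt
RC3H2: ttagttaacTTATTTATTtctatttta
ELAVL1: tttatgtatTTATTTATTgaagtgtga

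Each of these members had 1 nonamer, except RC3H2 with 2. The letters of the nonamer were in neither ZC3H12A, RC3H1, HNRNPD nor KHSRP. Longer 3′ untranslated regions hold the nonamer more often, so the share among regions within 10% of a member's own length was set beside it. That share was 5.05% for the 713 nt of ZFP36, 9.52% for the 1871 nt of ZFP36L1, 9.76% for the 1917 nt of ZFP36L2, 23.6% for the 6102 nt of ZC3H12C, 19.9% for the 5071 nt of RC3H2 and 21.2% for the 4904 nt of ELAVL1. Among the members without the nonamer it was 5.41% for ZC3H12A, 34.0% for the 7507 nt of RC3H1, 7.35% for HNRNPD and 5.71% for KHSRP. The shorter pentamer ATTTA occurred 5 times in ZFP36, 27 times in ZC3H12C and 0 times in both ZC3H12A and KHSRP. Some inflammatory target transcripts held the nonamer in overlapping runs, as in TNF at chr6:31578009-31578035 (plus), with 5 matches in its 799 nt, and in CXCL2 at chr4:74097591-74097617 (minus), with 5 matches in 721 nt. The windows shown for comparison with the single matches above each hold 3 complete matches. Capitals at a window edge can belong to a match that runs past it.
TNF: ATTTATTTATTATTTATTTATTtacag
CXCL2: gtcttctatTTATTTATTTATTTATTT

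The libraries held between 19682929 and 25155647 counts, and their geometric size factors, by which counts were divided, ran from 0.851 (mut PDZ+LPS) to 1.15 (Control). A gene was called where its normalized counts differed at least 2-fold and reached at least 16 in one of the 2 libraries compared. All 10 epithelial markers averaged 16 normalized counts or more, and their sum was 75739 to 107496 by library, although EPCAM had only 37 to 51 counts. Of 7 leukocyte, 4 endothelial and 8 mesenchymal markers, 2, 1 and 5 did. PTPRC, which defines leukocytes, was at 0 counts in all 4 libraries, but CD14 and CD68 of the same list had 362 to 507 and 304 to 358 counts. VIM and FN1, which mesenchymal cells also express, had 21167 to 23893 and 22253 to 43490 counts. The mut PDZ+LPS library stood apart by transcript length. Over 11753 of the 13072 genes, Spearman's rho across genes between length and the log2 fold change, given as a description, was -0.60 for mut PDZ+LPS against LPS, and 0.073 for WT PDZ+LPS against LPS. Values against the mut PDZ+LPS library are therefore also given with the trend over length and then GC content removed, called corrected below. The removal was not complete. After it, rho with length was 0.092 for mut PDZ+LPS against LPS and 0.098 for mut PDZ+LPS against WT PDZ+LPS, now with the opposite sign.

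Among the 10 members, the Regnase genes had the largest differences in LPS/Control, and the ZFP36 relative that was higher was ZFP36L1 and not ZFP36 itself. Of the 10 decay factors, 3 were called higher in LPS/Control (ZC3H12A, ZC3H12C and ZFP36L1) and 0 lower, beside 4.87% of the 13277 genes that passed the expression rule called in either direction and 3.46% called higher. The median log2 fold change of the 10 members was 0.12, against -0.0010 for all genes that averaged 16 normalized counts or more. The same 3 genes were called higher in WT PDZ+LPS/Control, where 4.70% of 13284 genes were called and 3.28% called higher. They were also called higher in mut PDZ+LPS/Control, where 8.09% of 13434 genes were called, 5.13% higher and 2.96% lower. These comparisons share the Control library, and in the last one RC3H2 was also called lower.

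**Figure D1:**
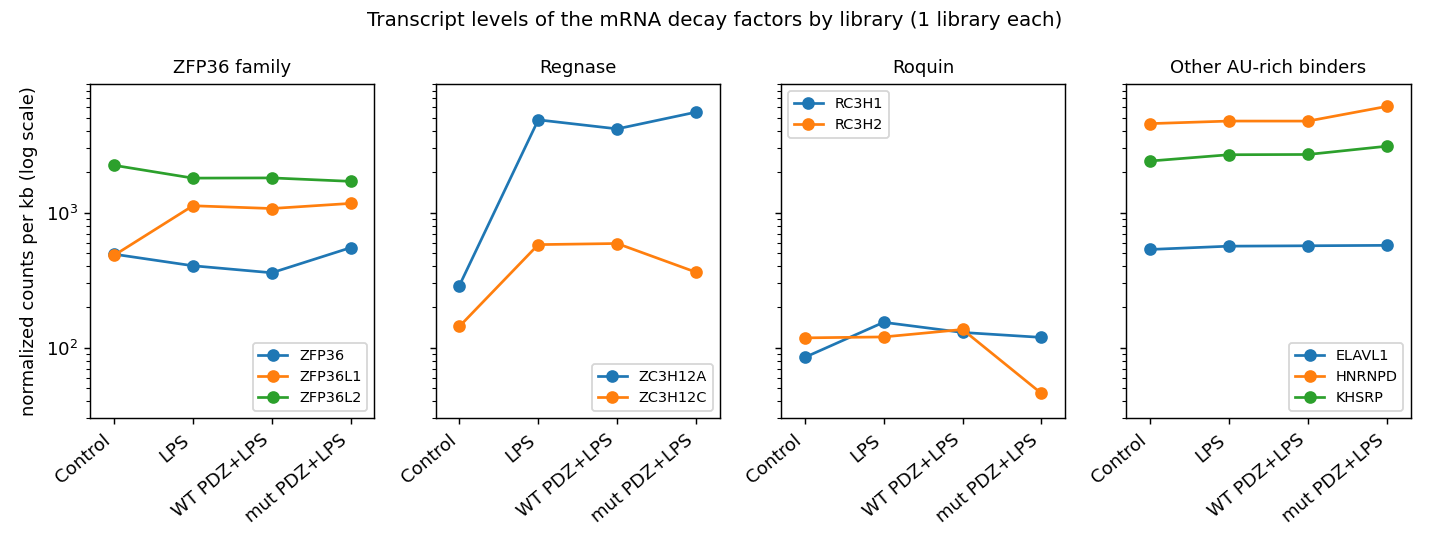
Normalized counts per kb of the longest protein-coding transcript (log axis) for each of the 10 decay factors in the 4 libraries, with 1 point per library and lines joining the points of one gene. ZC3H12A stood at 288 in Control and between 4163 and 5538 in the LPS-treated libraries, while RC3H2 stood at 45.9 in mut PDZ+LPS against 118 to 136 in the others.

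ZC3H12A (chromosome 1), which encodes Regnase-1, had 888 counts in Control, 13853 in LPS, 11066 with the wild-type and 12650 with the mutant peptide. After scaling these were 773, 13031, 11174 and 14864 normalized counts, so all 3 LPS-treated libraries lay far above Control. In LPS/Control this is 16.8-fold, or 4.07 on the log2 scale (95% counting interval, 3.98 to 4.18), and the log2 value was 3.85 in WT PDZ+LPS/Control (3.76 to 3.95). In mut PDZ+LPS/Control it was 4.26 (4.17 to 4.37), or 4.08 corrected. Per kb of transcript, ZC3H12A ranked 7 among the 10 members in Control, 1 in LPS and 2 behind HNRNPD in both peptide libraries. In LPS it stood at 4855 and HNRNPD at 4757 normalized counts per kb.

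ZC3H12C (chromosome 11), the gene of Regnase-3, had 1574 counts in Control, 5876 in LPS, 5578 with the wild-type and 2938 with the mutant peptide. These correspond to 1369.9, 5527, 5633 and 3452 normalized counts, with Control lowest and mut PDZ+LPS between it and the other LPS-treated libraries. The log2 fold change was 2.01 (1.93 to 2.09) in LPS/Control, and for WT PDZ+LPS/Control it was 2.04 (1.96 to 2.12). In mut PDZ+LPS/Control it was 1.33 (1.24 to 1.42), or 1.76 corrected. The ratio of ZC3H12A to ZC3H12C per kb was 2.01 in Control (1.85 to 2.18), 8.38 in LPS (8.13 to 8.64), 7.05 with the wild-type peptide (6.83 to 7.28) and 15.3 with the mutant (14.7 to 15.9). The last of these was 9.995 corrected. By this ratio the Regnase-1 message was the more abundant of the pair in every library. Its lead over ZC3H12C was larger in each LPS-treated library than in Control. In Control ZC3H12A had fewer counts, 888 against 1574, so the order there rests on the annotated transcript lengths of 2684 and 9542 nt. The span of ZC3H12C overlaps that of RDX on the other strand, and their exons shared 0 bases in GENCODE 29.

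Within the ZFP36 family the members differed in direction. ZFP36 (chromosome 19) had 1010 counts in Control, 767 in LPS, 634 with the wild-type and 836 with the mutant peptide, or 879, 722, 640.2 and 982 normalized counts. Its log2 fold change in LPS/Control was -0.28 (-0.42 to -0.15), less than 2-fold, and -0.46 (-0.60 to -0.31) in WT PDZ+LPS/Control. In mut PDZ+LPS/Control it was 0.16 (0.026 to 0.29) as counted and -0.076 corrected, so its direction there depended on the correction. LPS was given for 2 h only, so ZFP36 levels at earlier or later times were not measured.

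ZFP36L1 (chromosome 14) had 1767 counts in Control, 3809 in LPS, and 3385 and 3174 with the wild-type and mutant peptides. At 1538 normalized counts in Control and 3583, 3418 and 3729 in the others, its 3 LPS-treated values lay close together and above Control. Against Control, its log2 fold change was 1.22 (1.14 to 1.30) for LPS, 1.15 (1.07 to 1.24) for WT PDZ+LPS, and for mut PDZ+LPS 1.28 (1.19 to 1.36), or 1.37 corrected. This was a level 2.33 times that of Control in the LPS library.

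ZFP36L2 (chromosome 2), the family member with the highest level per kb in all 4 libraries, had 9505 counts in Control, 7068 in LPS, 6607 with the wild-type and 5355 with the mutant peptide. The normalized counts were 8272, 6649, 6672 and 6292, with Control highest. Its log2 fold change against Control was -0.32 (-0.36 to -0.27) for LPS, -0.31 (-0.36 to -0.26) for WT PDZ+LPS, and for mut PDZ+LPS -0.39 (-0.44 to -0.35) or -0.31 corrected, so it was not called in any of them. The balance within the family differed accordingly between Control and the LPS-treated libraries. Per kb, ZFP36L2 exceeded ZFP36L1 by 4.64 times in Control (4.41 to 4.89) and by 1.60 (1.54 to 1.67), 1.68 (1.62 to 1.76) and 1.46 (1.39 to 1.52, or 1.45 corrected) times in LPS and with the wild-type and the mutant peptide. ZFP36L1 and ZFP36 were level per kb in Control, at a ratio of 0.980 whose interval (0.906 to 1.06) included 1, and the ratio was 2.78 (2.57 to 3.01) in LPS.

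The Roquin genes were the least abundant of the 10 per kb in each of the 4 libraries. RC3H1 (chromosome 1, Roquin-1) had 1097 counts in Control, 1845 in LPS, 1446 with the wild-type and 1142 with the mutant peptide, or 955, 1736, 1460.2 and 1342 normalized counts. All LPS-treated values lay above Control, and the log2 fold change in LPS/Control was 0.86 (0.75 to 0.97), below the 2-fold limit over its whole counting interval. It was 0.61 (0.50 to 0.73) for WT PDZ+LPS/Control, while in mut PDZ+LPS/Control RC3H1 was at 0.49 (0.37 to 0.61), or 0.98 corrected. RC3H1 and ZC3H12A were thus both higher with LPS, at very different sizes.

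RC3H2 (chromosome 9, Roquin-2) had 1256 counts in Control, 1181 in LPS, 1249 with the wild-type and 361 with the mutant peptide. At 1093, 1111, 1261 and 424 normalized counts, the mut PDZ+LPS library stood far below the other libraries, which lay close together. In LPS/Control its log2 fold change was 0.023 (-0.092 to 0.14), a difference not detectable at this depth. Between mut PDZ+LPS and Control it was -1.36 (-1.54 to -1.20) as counted, the call named above, and -0.93 corrected. The ratio of RC3H1 to RC3H2 per kb was 0.717 in Control (0.661 to 0.778), 1.28 in LPS (1.19 to 1.38), 0.951 with the wild-type peptide (0.881 to 1.03) and 2.60 with the mutant (2.31 to 2.93), or 2.69 corrected.

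ELAVL1 and KHSRP (both chromosome 19) and HNRNPD (chromosome 4) were high in all libraries and not called in any comparison. ELAVL1 had 3686 counts in Control, 3607 in LPS, 3383 with the wild-type and 2928 with the mutant peptide, which scaled to between 3208 and 3440.4 normalized counts. HNRNPD had 15867, 15337, 14279 and 15765 counts in the same order, with 18524 normalized counts in mut PDZ+LPS against 13809 to 14427 in the others. KHSRP had 8279, 8526, 7976 and 7892 counts, or 7205 to 9273 normalized counts, again with mut PDZ+LPS highest. In mut PDZ+LPS/Control the log2 fold change of ELAVL1 was 0.10 as counted and 0.44 corrected. HNRNPD was at 0.42 there, or 0.53 corrected, and KHSRP at 0.36, or 0.27 corrected. In LPS/Control their log2 fold changes were 0.081 (0.014 to 0.15), 0.063 (0.031 to 0.095) and 0.15 (0.11 to 0.20) in the order ELAVL1, HNRNPD and KHSRP. With scaling by the total count, which moved the LPS/Control median over all genes to -0.13, the first and second of these were -0.050 and -0.068.

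**Figure D2:**
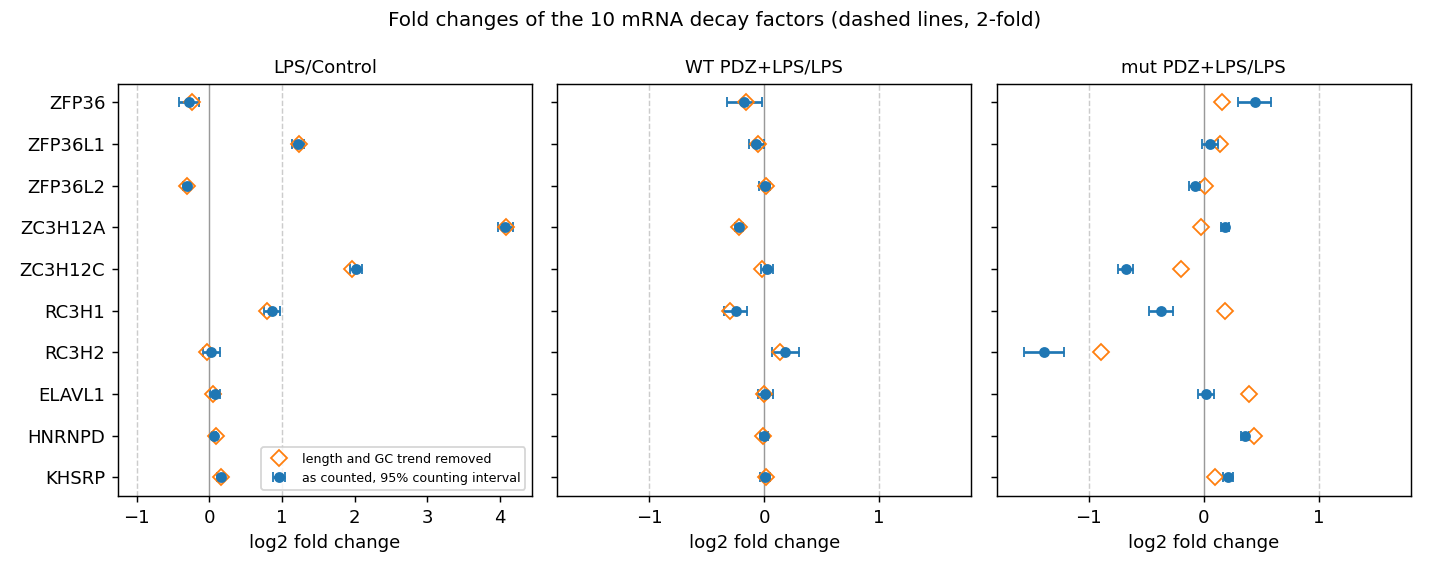
Log2 fold changes of the 10 decay factors for LPS against Control and for each peptide library against LPS (panels). Filled points are values as counted with 95% counting intervals, open diamonds are corrected for length and GC content, and dashed lines mark 2-fold. ZC3H12A is at 4.07 in LPS/Control, all filled points in WT PDZ+LPS/LPS lie between -0.25 and 0.18, and RC3H2 is at -1.39 in mut PDZ+LPS/LPS.

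The comparison of WT PDZ+LPS with LPS sets cells given the wild-type peptide before LPS beside cells given LPS alone. Without a library of peptide alone, an altered response to LPS and an effect of the peptide before LPS cannot be told apart. Of the 10 decay factors 0 were called, beside 1.37% of 13236 genes, and no test was run behind this count. The median log2 fold change of the members was 0.0021, against 0.0075 for all genes, with 5 members above 0 and 5 below. ZC3H12A was at -0.22 (-0.26 to -0.19), RC3H1 at -0.25 (-0.35 to -0.15), ZFP36 at -0.17 (-0.33 to -0.019) and ZFP36L1 at -0.068 (-0.14 to -0.00081). RC3H2 was at 0.18 (0.067 to 0.30). These were the members whose counting interval excluded 0, and each difference was far below 2-fold. For ZFP36L2, ZC3H12C, ELAVL1, HNRNPD and KHSRP the difference was not detectable at this depth. Their log2 fold changes lay between -0.00085 and 0.027. Removing the trend over length and GC content left ZC3H12A at -0.22 and RC3H1 at -0.29.

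The comparison of mut PDZ+LPS with LPS, which serves as the control for the peptide sequence, gave 1 call, RC3H2, lower, beside 3.95% of 13378 genes called in either direction and 1.90% called lower. RC3H2 was 2.62-fold lower, with a log2 fold change of -1.39 (-1.56 to -1.22), and the corrected value was -0.90, below the 2-fold limit that 0.936% of 11968 genes passed downward after the correction. Its longest protein-coding transcript measures 9248 nt, and genes in the longest decile (median 9573 nt) had a median log2 fold change of -0.48 in this comparison. RC3H1, with a transcript of 11261 nt, was at -0.37 (-0.48 to -0.26) as counted and 0.19 corrected. ZC3H12C, with 9542 nt, was at -0.68 (-0.74 to -0.61) and -0.20. The lower and upper quartiles of all genes in the longest decile were -0.72 and -0.21, so values varied among genes of similar length. Of RC3H2, RC3H1 and ZC3H12C, RC3H2 was the lowest both as counted and corrected. Whether transcript length accounts for its value was not tested.

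**Figure D3:**
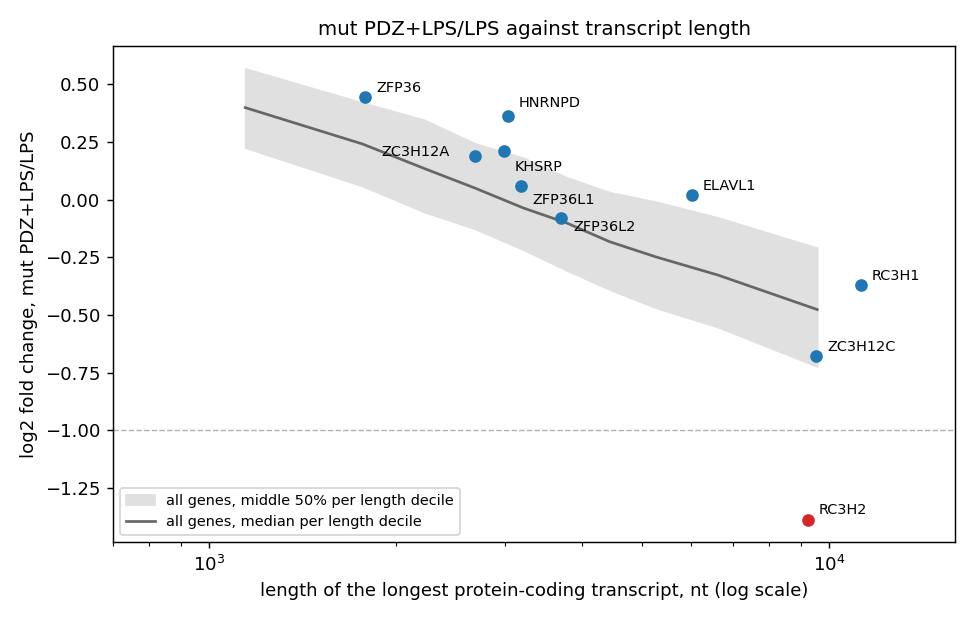
Log2 fold change of mut PDZ+LPS over LPS (vertical axis) against the length of the longest protein-coding transcript in nt (log axis) for the 10 decay factors, over the median (line) and middle 50% (band) of all genes in 10 classes of length. RC3H2 (red, the member called) lies at -1.39, while the class median goes from 0.40 in the shortest to -0.48 in the longest class.

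The other 7 members had shorter transcripts than these. ZFP36, whose transcript of 1786 nt is the shortest of the 10, was at 0.44 (0.30 to 0.59) in mut PDZ+LPS/LPS, or 0.16 corrected. ZC3H12A was at 0.19 (0.15 to 0.22) as counted and -0.021 corrected, so its direction depended on the correction. HNRNPD, at 0.36 (0.33 to 0.39), and ELAVL1, at 0.020 (-0.051 to 0.091), moved further from 0 with the correction, to 0.44 and 0.40. KHSRP was at 0.21 (0.17 to 0.25), or 0.10 corrected, and ZFP36L1 and ZFP36L2 were at 0.058 and -0.080, or 0.14 and 0.015 corrected.

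Between the peptides, RC3H2 was also the member called in mut PDZ+LPS/WT PDZ+LPS, beside 4.26% of 13372 genes in either direction and 2.14% lower, at -1.57 (-1.75 to -1.40) and -1.03 corrected, which still passed the 2-fold limit. After the correction 0.886% of 11961 genes were called lower in this comparison. ZFP36 was at 0.62 (0.47 to 0.77), or 0.31 corrected, and ZC3H12A at 0.41 (0.37 to 0.45), or 0.19 corrected. ZC3H12C was at -0.71 (-0.77 to -0.64), or -0.17 corrected. RC3H1 was at -0.12 (-0.24 to -0.0090) as counted and 0.49 corrected. These values share the mut PDZ+LPS library with the preceding comparison and are no separate evidence.

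For the 3 members called in LPS/Control, the genes with the most similar pattern over the 4 libraries were found by the Euclidean distance between log2 normalized counts centred on each gene's mean. Nearest to ZC3H12A were LIF (distance 0.045), TNFAIP2 (0.14) and CXCL2 (0.18). LIF, a cytokine of the IL-6 family whose transcript carries 2 nonamers, had 604 normalized counts in Control and 10016 in LPS, 8803 with the wild-type and 11931 with the mutant peptide. Nearest to ZFP36L1 were XBP1 (0.054), a transcription factor of the unfolded protein response, GBP4 (0.072) and ATF3 (0.087). Nearest to ZC3H12C were ANKRD33B (0.12), ATP2B1 (0.13), a plasma membrane calcium pump, and EREG (0.16), a ligand of the EGF receptor. EREG had 4032, 18363, 19106 and 11212 normalized counts in the same order, lower in mut PDZ+LPS than in the other LPS-treated libraries as ZC3H12C was. The distances used counts without the correction, so the length trend of the mut PDZ+LPS library enters them. ZC3H12C itself was at -0.68 in mut PDZ+LPS/LPS as counted and at -0.20 corrected.

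The rest of the decay machinery was described by lists written from general knowledge with earlier results of these data known. Of the 20 deadenylation genes, NOCT and BTG3 were called higher in LPS/Control and 0 were called lower, beside 3.46% of 13277 genes called higher. NOCT, an enzyme related to the CCR4 deadenylases, had 359 counts in Control, 1272 in LPS, 1177 with the wild-type and 954 with the mutant peptide, and its log2 fold change in LPS/Control was 1.93 (1.77 to 2.11). BTG3, of the antiproliferative BTG/TOB family, had 911, 1885, 1702 and 1870 counts, with 1.16 (1.05 to 1.28). TOB1 of the same family, which binds deadenylases, was at -0.66 (-0.80 to -0.52). The CCR4-NOT scaffold CNOT1 was at 0.12 in LPS/Control and at -1.22 (-1.28 to -1.17) in mut PDZ+LPS/LPS, or -0.71 corrected, and CNOT6L, a catalytic subunit, was at -1.05 (-1.20 to -0.89), or -0.59 corrected. These were the 2 deadenylation genes called lower in mut PDZ+LPS/LPS, beside 1.90% of 13378 genes. After the correction 0 of the list were called lower there.

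Neither the 16 decapping genes nor the 16 exosome genes had a call in any of the 6 comparisons. Over all genes the share called ran from 1.37% in WT PDZ+LPS/LPS to 8.09% in mut PDZ+LPS/Control. With shares this low, 0 calls among 16 genes were not read as a trait of these lists. Their median log2 fold changes in LPS/Control were 0.029 and 0.053, near the -0.0010 of all genes. The largest difference among them in LPS/Control was in DCP1B, a decapping cofactor, with 310 counts in Control and 154 in LPS, at -0.89 (-1.19 to -0.61). Among 21 other AU-rich binding proteins with enough counts, CELF1 was the one called in LPS/Control, beside 4.87% of 13277 genes. It was at 1.06 (1.01 to 1.10) with 5781 counts in Control and 11126 in LPS. In WT PDZ+LPS/Control CELF1 was at 0.96 (0.91 to 1.01), just below the limit. The 13 measured relatives and regulators of Regnase and Roquin had 0 calls in LPS/Control and in WT PDZ+LPS/LPS, beside 4.87% and 1.37% of all genes. ARID5A, which is known to protect IL6 messenger RNA from Regnase-1, had 43 counts in Control, 40 in LPS, 53 with the wild-type and 72 with the mutant peptide, and was called higher in mut PDZ+LPS/LPS at 1.15 (0.59 to 1.76), or 0.91 corrected.

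The p38-MK2 axis phosphorylates ZFP36 and thereby restrains its activity. Of its 14 kinases, phosphatases and 14-3-3 proteins, MAP2K3, a kinase that activates p38, was called higher in LPS/Control, with 1318 counts in Control and 4347 in LPS, at 1.83 (1.74 to 1.92). The share of all 13277 genes called higher in LPS/Control was 3.46%. In WT PDZ+LPS/LPS MAP2K3 was at -0.12 (-0.19 to -0.060). DUSP1, a phosphatase that turns p38 off, was at 0.53 in LPS/Control, with 3141 and 4204 counts.

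**Figure D4:**
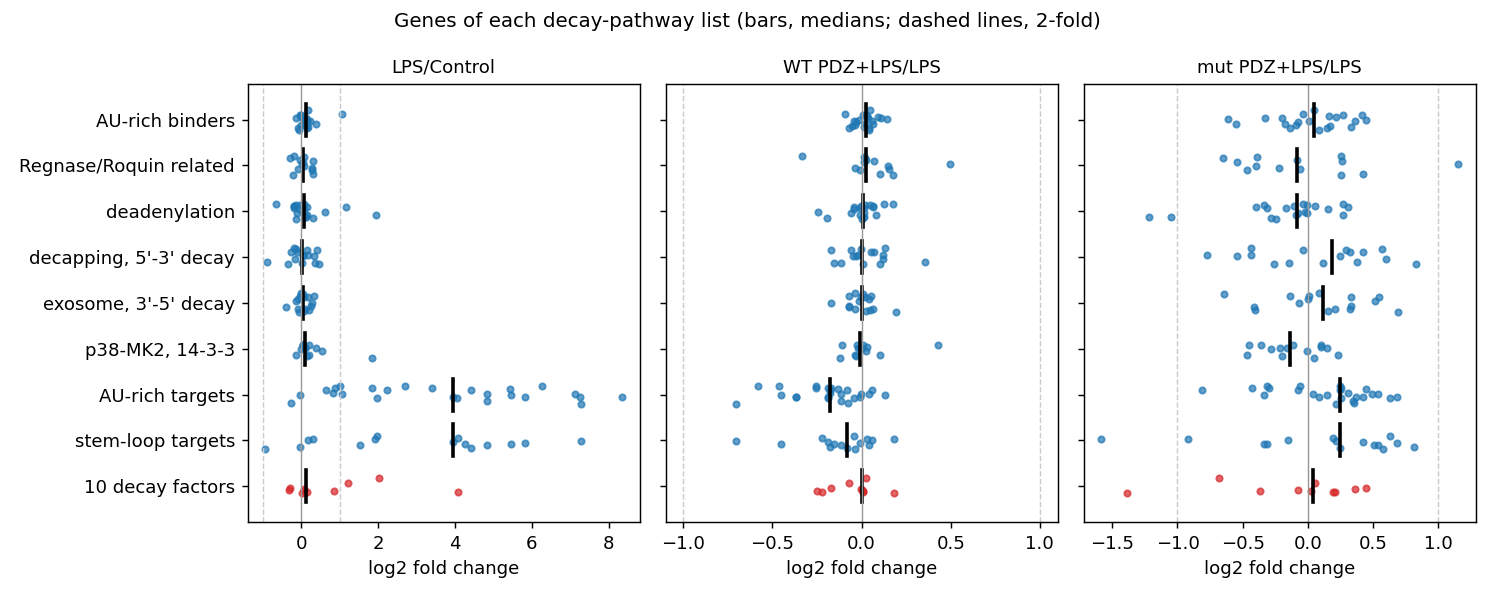
Log2 fold changes for LPS against Control and for each peptide library against LPS (panels), shown for the genes of each list averaging 16 normalized counts or more (points, spread vertically for legibility; the 10 decay factors in red), with the list median as a bar and dashed lines at 2-fold. The target lists have medians of 3.94 in LPS/Control, while the lists of decay machinery have medians between 0.029 and 0.12.

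The lists of target messages had higher median log2 fold changes in LPS/Control than the 10 factors, whose median was 0.12. Of 25 measured transcripts known to carry AU-rich elements, 19 were called higher in LPS/Control and 0 lower, with a median log2 fold change of 3.94. Of 15 measured stem-loop targets of Regnase-1 and Roquin, a list that shares genes with the first and holds ZC3H12A itself, 11 were called higher, also with a median of 3.94. Of the 13277 genes that passed the expression rule, 3.46% were called higher. Both target lists were written with earlier results of these data known, so these counts are a description and no test. IL1B had 3 counts in Control, 591 in LPS, 337 with the wild-type and 548 with the mutant peptide, and IL1A had 7, 1145, 827 and 970. For TNF, 46 counts in LPS stood against 0 in Control, at least 16.6-fold higher when the 0 is taken as 3 counts in that library, and with TNF at this bound both medians were again 3.94. In WT PDZ+LPS/LPS 0 genes of either list were called, beside 1.37% of 13236 genes. The medians were -0.17 for the AU-rich targets, with 22 of 25 below 0, and -0.080 for the stem-loop targets, with 11 of 15 below 0. The median of all genes was 0.0075. The listed genes were read from the same pair of libraries and are not replicates, and their direction was not tested. In mut PDZ+LPS/LPS both medians were 0.25, or 0.018 and 0.061 corrected. REL, an NF-kB subunit gene, was the stem-loop target called lower there, at -1.58 (-1.73 to -1.44), or -1.02 corrected. TFRC, which encodes the transferrin receptor, was called lower together with REL in mut PDZ+LPS/WT PDZ+LPS, at -1.10 as counted and -0.78 corrected.

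The promoters of the members were searched for the letters of inflammatory transcription factor motifs, since 3 members were higher together with LPS. RefSeq promoters (GRCh38.p14) were found for 8 of the 10 members, and the 250 bases before each start were searched on both strands. The kappa-B consensus, which NF-kB binds, was in 9.96% of all 35116 promoters. It was found for RC3H2, whose LPS/Control difference was not detectable, and for 1 of the 2 promoters of ZC3H12C, and its letters were not in this window for ZC3H12A, ZFP36 or ZFP36L1. The AP-1 motif TGANTCA had no match among the members, against 6.57% of all promoters, and the cyclic AMP response element TGACGTCA, against 1.65%, matched in 1 of the 2 promoters of ZFP36L1. The first 60 bases of the RC3H2 and ZC3H12C windows are shown 5′ to 3′ on the strand of the gene, at chr9:122905550-122905609 (minus) and chr11:110093142-110093201 (plus), with the kappa-B matches in capitals. The RC3H2 matches overlap on both strands, and that of ZC3H12C is on the opposite strand.
RC3H2: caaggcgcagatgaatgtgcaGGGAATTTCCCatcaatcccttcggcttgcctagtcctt
ZC3H12C: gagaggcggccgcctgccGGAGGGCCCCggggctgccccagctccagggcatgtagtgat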

How the data were processed

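RNA was sequenced from 4 BEAS-2B libraries, 1 per condition, as paired-end reads. After trimming, the authors mapped reads to hg19 using TopHat, per the submitters' processing notes, and the values they deposited are raw counts of reads for each gene symbol, not normalized. The counting tool, the annotation and the use of strand are not given in the sources used here. Counts were divided by geometric size factors (DESeq2 1.42.0, R 4.3.3), and 1 normalized count was added before log2. Counting intervals were exact binomial at 95%. The limits were 2-fold and 16 normalized counts (4 on the log2 scale). The study's methods name FPKM with geometric normalization in edgeR, so its limit on normalized data, though the same in number, applied to other values than these counts, which are not scaled for length. For the correction, a lowess curve (span 0.3) of fold change on transcript length, then one on GC content, was subtracted, both taken from each gene's longest protein-coding transcript (GENCODE 29) and fitted over 11753 of 13072 genes.

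The members and the 8 lists were chosen with earlier results of these data known. All 10 members are named. From each list the text draws on the 3 genes with the largest absolute log2 fold change in LPS/Control and those called between LPS-treated libraries, and for each member called in LPS/Control the 3 genes of nearest pattern. The alternatives were 3 other scalings (TMM by edgeR 4.0.16, upper quartile, total count), a pseudocount of 5, an expression rule of 64 normalized counts or none, fold limits of 1.5 and 3, and the correction. The steps were tested on simulated Poisson counts with a simple trend over length. In the real mut PDZ+LPS comparisons the trend was not removed completely, so that test does not vouch for the correction there. Sequences and coordinates are from GRCh38 and were not joined to hg19 coordinates. Fits and plots used pandas 2.3.3, statsmodels 0.14.6, scipy 1.17.1, numpy 2.4.6 and matplotlib 3.10.9 under Python 3.11.15.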

Additional observations from a re-analysis of the deposited data

Results flagged for a closer look

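Members whose differences from LPS went opposite ways in the libraries of the 2 peptides, each with a counting interval that excluded 0, are listed here. ZFP36 was at -0.17 with the wild-type and 0.44 with the mutant peptide on the log2 scale, ZC3H12A at -0.22 and 0.19, and RC3H2 at 0.18 and -1.39. With the length and GC correction, the mut PDZ+LPS/LPS values were 0.16, -0.021 and -0.90, so ZC3H12A then lay near 0 with the mutant peptide. RC3H1, at -0.25 and -0.37 as counted, lay on opposite sides of 0 after the correction, at -0.29 and 0.19. With 1 library per condition these differences were not tested.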

How the results depend on the processing

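Under the 9 alternatives, 2 to 4 members were called higher in LPS/Control and likewise 2 to 4 for WT PDZ+LPS against Control, where 3 were reported in each, and 0 for WT PDZ+LPS against LPS. With a 1.5-fold limit, 2 members were called for mut PDZ+LPS against LPS and 3 for mut PDZ+LPS against WT PDZ+LPS. With a 3-fold limit, 1 was called for mut PDZ+LPS against Control and 0 against either LPS or WT PDZ+LPS. The correction left 0 calls for mut PDZ+LPS against LPS.

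Of 60 member values (10 members in 6 comparisons), 5 changed sign with total-count scaling, 2 with TMM, 1 with upper-quartile scaling and 8 with the correction, and under these settings no called value changed sign. The largest move was 0.13 on the log2 scale with total-count scaling and 0.61 with the correction. Over all genes, the 647 calls in LPS/Control became 288 (3-fold limit) to 2145 (no expression rule), the 625 in WT PDZ+LPS/Control 278 to 2601, and the 181 in WT PDZ+LPS/LPS 11 (64 normalized counts) to 2106. For mut PDZ+LPS, the 1087 calls against Control became 399 to 3175, the 528 against LPS 122 to 2435 (258 with the correction) and the 570 against WT PDZ+LPS 139 to 3057 (252 with the correction). Total-count scaling lowered the share of calls that were higher in LPS/Control from 71.1% to 58.6%, that of WT PDZ+LPS/Control from 69.8% to 57.0%, and that of mut PDZ+LPS/Control from 63.4% to 51.7%. Upper-quartile scaling raised that share for mut PDZ+LPS against WT PDZ+LPS from 49.8% to 62.6%.

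No paired analysis was possible because each condition had 1 library, and for the same reason no library was left out. Depth limits what can be said of genes with few counts, such as ARID5A with 40 to 72 and TNF with 0 to 46.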
